A study of Mus musculus with 18 samples.

Results

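The genes described here, 9 of the 27997 in the expression table, carry out the housekeeping that astrocytes provide for neurons. They are the water channel gene Aqp4, the potassium channel gene Kcnj10, the sodium pump subunit gene Atp1b2, the glutamate transporter genes Slc1a2 and Slc1a3, the glutamine synthetase gene Glul, the bicarbonate transporter gene Slc4a4 and the gap junction genes Gja1 and Gjb6. They were chosen by name for these functions, and each was matched to 1 row of the table through its gene symbol. In every comparison 8 of the 9 passed the filter on low values, a log2 value of 3.32 or more (10 when not on a log scale) for 3 or more libraries of that comparison, and Gjb6 passed it in none.

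RNA was sequenced from adherent neural stem cell (NSC) cultures of 3 mouse lines and from astrocytes differentiated from them, in 18 libraries that form 6 groups of 3. The 2 lines traced by DNGR-1 came from spinal cord, with the labelled genotypes DNGR-1 +/- Tom+/- and DNGR-1 +/- EYFP+/-: Cre made from Clec9a, the gene of DNGR-1, had switched on a floxed-stop tdTomato or EYFP reporter in the Rosa locus. The hippocampal line is labelled DNGR-1+/+ and, by the study's methods, came from Glast Cre, Huwe1 fl, Rosa LSL EYFP mice. NSCs were grown with bFGF and EGF at 20 ng/ml each and laminin and were collected on day 4, and astrocytes were kept in medium with BMP4 at 20 ng/ml, without EGF and bFGF, and were collected on day 6. An age is given for the mice of the whole study as a range only.

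Each group was 1 line, and its 3 replicates were cultures from passages 10, 11 and 12 of that line. The p-values within a line, between the 2 traced lines and of the interactions measure the spread between cultures of the same line. In the comparisons of origin, the difference between the 2 traced lines also counts as spread. Over all lines, so does any difference between lines in the change from NSC to astrocyte. With 2 traced lines and 1 hippocampal line, a difference of tissue origin cannot be told apart from a difference between lines, reporters or genotypes. BMP4 likewise cannot be told apart from the withdrawal of growth factors and the longer culture. In such bulk samples, fewer cells of a type and less RNA per cell cannot be told apart. Glast is the protein made by Slc1a3, and whether the Cre of the hippocampal line sits in the Slc1a3 locus is not given in the sources used here, so its part in the Slc1a3 values was not tested.

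Astrocytes wrap synapses and blood vessels and keep the fluid around neurons constant. Aqp4 forms the water pores of their end feet, where it is held near the inward rectifier Kir4.1, the product of Kcnj10, through which potassium released by active neurons is taken up. The sodium pump, in which Atp1b2 encodes the beta subunit typical of glia, clears potassium too and sets up the sodium gradient that drives GLT-1 (Slc1a2) and GLAST (Slc1a3), the main glutamate transporters of the brain. Glutamine synthetase (Glul) turns the glutamate into glutamine, the cotransporter NBCe1 (Slc4a4) carries sodium and bicarbonate and so buffers pH, and the connexins Cx43 (Gja1) and Cx30 (Gjb6) join astrocytes into a network. In brain, GLAST is typical of radial glia and immature astrocytes and GLT-1 of mature ones.

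Over all lines, 6 of the 8 genes tested were higher in astrocytes and 0 were lower, where 42.1% of the 15448 genes tested were higher and 39.8% lower (limma with the line as covariate, Benjamini-Hochberg adjusted p under 0.05). Aqp4, Slc1a2, Gja1 and Atp1b2 rose by 1.74 to 4.36 on the log2 scale, and in these 4 genes every astrocyte library lay above every NSC library. Slc4a4 rose by 0.60 and Slc1a3 by 0.38, the last of these with a direction that turned under quantile normalisation, whereas Kcnj10 (log2 change -0.14, standard error 0.08, adjusted p = 0.104) and Glul (0.01, standard error 0.05, adjusted p = 0.814) did not pass. The median change of the 8 genes was 1.17, beside 0.02 for all genes tested. Most genes of the table passed in one direction or the other, so the sizes below say more than the counts.

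**Figure D1:**
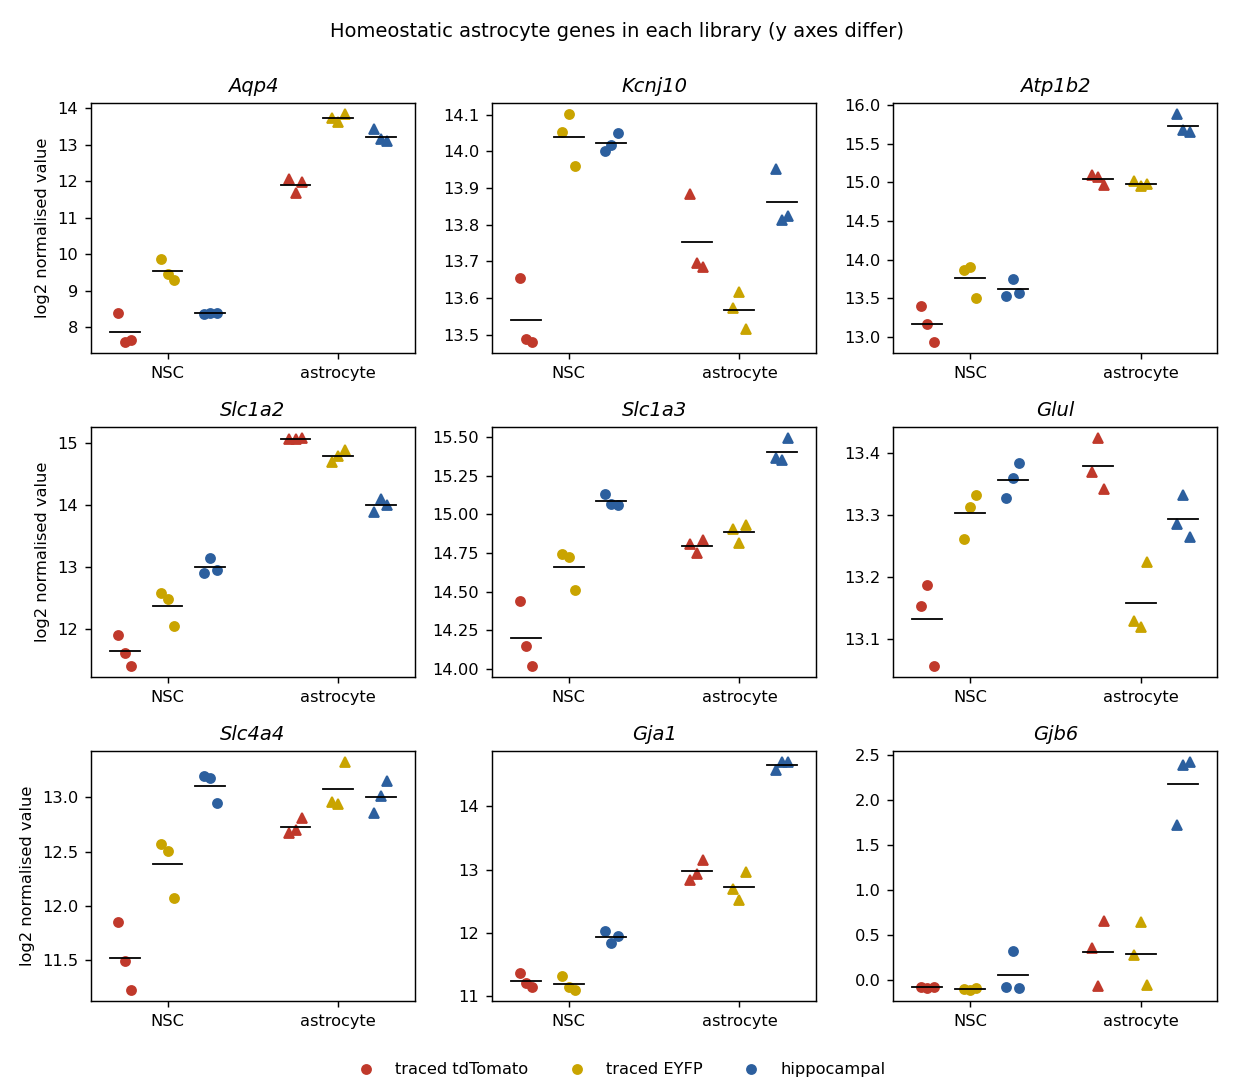
Log2 normalised value (y axis, a different range in each panel) of the 9 genes in each of the 18 libraries, with circles for NSCs, triangles for astrocytes, colours for the 3 lines and a short horizontal line for the mean of 3 libraries. Aqp4, Atp1b2, Slc1a2 and Gja1 stand higher in all astrocyte libraries than in any NSC library, Glul spans only 13.06 to 13.42 over all 18, and Gjb6 exceeds 1 only in the hippocampal astrocytes.

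Aqp4 (ENSMUSG00000024411, on chromosome 18 from 15389496 to 15410982, GRCm38) had the largest change of the 9. In NSCs its log2 values were 8.38, 7.60 and 7.65 in the traced tdTomato line, 9.87, 9.45 and 9.31 in the traced EYFP line and 8.37, 8.38 and 8.39 in the hippocampal line. In astrocytes they were 12.07, 11.68 and 11.98, 13.75, 13.63 and 13.84, and 13.43, 13.15 and 13.10 in the same order. The EYFP line was thus the highest in both fates, and tdTomato astrocytes stayed below both other astrocyte groups. The change was 4.36 over all lines (standard error 0.13, 20.5-fold, adjusted p = 2.17e-15), and it was 4.03, 4.19 and 4.85 in the tdTomato, EYFP and hippocampal lines. Between the 2 traced lines Aqp4 differed in both fates, by -1.67 in NSCs (standard error 0.22, adjusted p = 0.000946) and by -1.83 in astrocytes (standard error 0.10, adjusted p = 1.32e-05), tdTomato minus EYFP. The 6 groups followed the order EYFP, hippocampal and tdTomato astrocytes and then EYFP, hippocampal and tdTomato NSCs, and only the last pair of neighbours overlapped.

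Of the other water channel genes, 8 of 9 had a row and 4 were tested, and these 4 were higher in astrocytes over all lines. The share of all genes that were higher was 42.1%. Aqp1 and Aqp5 reached the filter in astrocyte libraries only and so could not have been called as lower. The changes were those of Aqp9 (log2 change 2.47), a channel that also passes glycerol, Aqp5 (1.68), Aqp11 (1.46) and Aqp1 (0.52, adjusted p = 0.0445), the channel typical of the choroid plexus. In astrocytes Aqp11 had group means of 6.998 to 8.22, Aqp9 of 6.44 to 6.48 and Aqp5 of 3.55 to 3.86. The call of Aqp1 was lost with any of 10 of the 18 libraries left out (adjusted p from 0.0512 to 0.0937) and under quantile normalisation (0.16, adjusted p = 0.517). By line, Aqp1 rose in the hippocampal line (1.52, adjusted p = 0.000585). It was below the filter for a test in either traced line, with means of 2.75 and 2.87 (tdTomato) and 3.06 and 2.98 (EYFP) in NSCs and astrocytes. The traced and hippocampal changes differed by -1.49 (limma interaction, adjusted p = 0.00129).

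Genes of the complex that anchors Aqp4 at the end foot, and of the Mlc1 complex beside it, mostly rose too. Of 12 tested, 10 were higher, 1 was lower and 1 did not pass, with a median change of 0.94. Over all genes tested 42.1% were higher and 39.8% lower, with a median change of 0.02. Mlc1, whose loss causes a leukodystrophy with swollen white matter, rose by 1.68 (standard error 0.06, adjusted p = 1.41e-14), and Dtna, which encodes a dystrobrevin, by 1.33. Agrn, which encodes the matrix protein agrin, was lower by a small margin (-0.08, adjusted p = 0.0441), and Dtnb had a change of -0.06 (adjusted p = 0.256). The calls of Agrn and of Trpv4 (0.36, adjusted p = 0.0418), a channel that responds to swelling, were lost with 9 and 12 of the 18 libraries left out (adjusted p from 0.0584 to 0.0922 and from 0.0566 to 0.0844). That of Agrn was also lost under median centring (-0.04, adjusted p = 0.401) and that of Trpv4 under quantile normalisation (0.03, adjusted p = 0.859).

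Kcnj10 (ENSMUSG00000044708, chromosome 1 from 172341210 to 172374085) was already high in NSCs and moved little, in a different direction in each traced line. Its NSC values were 13.65, 13.49 and 13.48 in the tdTomato line, 14.05, 14.10 and 13.96 in the EYFP line and 14.002, 14.02 and 14.05 in the hippocampal line. The astrocytes had 13.88, 13.70 and 13.68, 13.57, 13.62 and 13.51, and 13.95, 13.81 and 13.82. It was higher in tdTomato astrocytes than in their NSCs (0.21, standard error 0.07, adjusted p = 0.0189) and lower in the EYFP line (-0.47, standard error 0.06, adjusted p = 3.95e-05) and the hippocampal line (-0.16, standard error 0.05, adjusted p = 0.0163). Over all lines Kcnj10 was called as lower without tdTomato NSC replicate 2 or 3 or astrocyte replicate 1 (adjusted p from 0.0250 to 0.0466) and under quantile normalisation (-0.24, adjusted p = 0.00970). The change differed between the traced lines by 0.68 (standard error 0.09, adjusted p = 0.00011, limma interaction), and the difference between traced and hippocampal lines was 0.03 (standard error 0.08, adjusted p = 0.760). The tdTomato call was lost without NSC replicate 2 or 3 (adjusted p = 0.0744 and 0.0684) and under quantile normalisation (0.16, adjusted p = 0.0630), and the hippocampal call without NSC replicate 3 or astrocyte replicate 2 or 3 (0.0519 to 0.0640). EYFP and hippocampal NSCs stood highest and overlapped, hippocampal and tdTomato astrocytes overlapped below them, and EYFP astrocytes and tdTomato NSCs overlapped at the bottom.

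None of the 4 other potassium channel genes of astrocytes rose over all lines, and 3 of them were lower. The shares over all genes were 42.1% higher and 39.8% lower. Kcnk1 (-1.32, standard error 0.11, adjusted p = 2.70e-09) and Kcnk10 (-0.95, but -0.13 with adjusted p = 0.638 in the hippocampal line, where alone it could be tested by line) encode 2-pore leak channels, and Kcnk2, another of these, had a change of -0.17 (adjusted p = 0.185), called as lower under quantile normalisation (-0.28, adjusted p = 0.0314). Kcnj16, whose product Kir5.1 assembles with Kir4.1, was lower over all lines (-0.38, adjusted p = 0.0215), but its lines moved apart. It fell by 1.00 in the tdTomato line and by 0.45 in the EYFP line and rose by 0.32 in the hippocampal line (adjusted p = 4.51e-06, 0.00283 and 0.000223), and the difference between traced and hippocampal lines was -1.05 (standard error 0.12, adjusted p = 1.43e-06).

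Atp1b2 (ENSMUSG00000041329, chromosome 11 from 69599736 to 69605942) rose in all 3 lines. NSC libraries had 13.40, 13.17 and 12.94 in the tdTomato line, 13.87, 13.91 and 13.51 in the EYFP line and 13.53, 13.75 and 13.57 in the hippocampal line. The values in astrocytes were 15.09, 15.07 and 14.97, 15.01, 14.95 and 14.98, and 15.88, 15.67 and 15.65. All hippocampal astrocyte libraries lay above all traced ones, which overlapped each other, as did EYFP and hippocampal NSCs. The change was 1.87 in the tdTomato line (standard error 0.10), 1.22 in the EYFP line (standard error 0.10) and 2.12 in the hippocampal line (standard error 0.08), with adjusted p-values of 1.86e-07, 2.57e-06 and 7.37e-09. It differed between the traced lines by 0.66 (standard error 0.15, adjusted p = 0.00925) and between traced and hippocampal lines by -0.57 (standard error 0.13, adjusted p = 0.00184). The last of these was lost under quantile normalisation (-0.31, adjusted p = 0.0939).

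The sodium pump pairs an alpha subunit, which moves the ions, with a beta subunit and often an FXYD regulator. Of the 4 other beta subunit and FXYD genes tested, 3 were higher in astrocytes over all lines and 1 did not pass. Fxyd1, which encodes phospholemman, rose by 4.80 (standard error 0.15, adjusted p = 3.01e-15) from below the filter in every NSC group, and Atp1b1, the beta subunit found in most tissues, rose by 3.38 (standard error 0.10, adjusted p = 1.63e-15). Fxyd6, another regulator, was higher by 0.47 (standard error 0.13, adjusted p = 0.00291). The change of Atp1b3 was 0.01 over all lines (adjusted p = 0.885), with a rise of 0.26 in the EYFP line (adjusted p = 0.000403) and changes of -0.09 in the tdTomato line (adjusted p = 0.0971) and -0.15 in the hippocampal line (adjusted p = 0.0137). Fxyd6 was called in the hippocampal line (1.01) and the EYFP line (0.40) and not in the tdTomato line (0.01, adjusted p = 0.945).

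**Figure D2:**
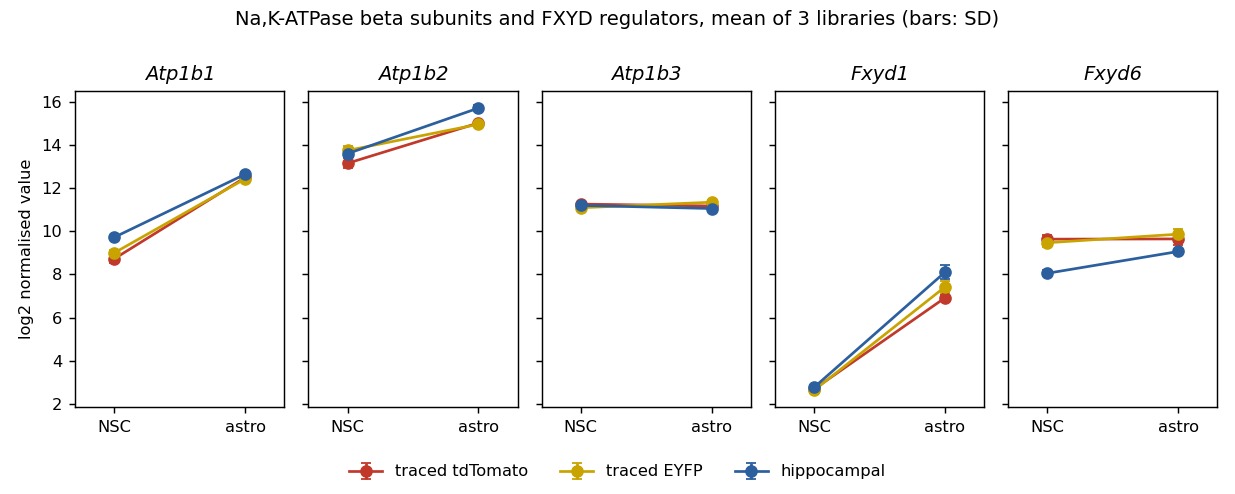
Log2 normalised value (y axis) of 3 beta subunit and 2 FXYD genes of the sodium pump in NSCs and astrocytes of each line, as means of 3 libraries with the SD as bars, not divided by gene length. Atp1b1, Atp1b2 and Fxyd1 go up in all 3 lines, Atp1b3 has means between 11.07 and 11.36, and Fxyd6 has its lowest mean, 8.06, in hippocampal NSCs.

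Slc1a2 (ENSMUSG00000005089, chromosome 2 from 102658659 to 102790784) rose in every line, and the order of the lines turned over. In NSCs the values were 11.90, 11.62 and 11.41 in the tdTomato line, 12.58, 12.49 and 12.05 in the EYFP line and 12.90, 13.15 and 12.96 in the hippocampal line. In astrocytes they were 15.07, 15.06 and 15.08, 14.70, 14.79 and 14.89, and 13.89, 14.09 and 14.01. The tdTomato line was the lowest as NSCs and the highest as astrocytes, the hippocampal line the highest as NSCs and the lowest as astrocytes, and none of the 6 groups overlapped. The change was 3.43 (standard error 0.10, 10.8-fold, adjusted p = 4.88e-09) in the tdTomato line, 2.42 (standard error 0.12, 5.35-fold, adjusted p = 8.92e-08) in the EYFP line and 0.99 (standard error 0.07, 1.99-fold, adjusted p = 8.01e-07) in the hippocampal line. It was larger in the traced lines than in the hippocampal line by 1.93 (standard error 0.15, adjusted p = 1.29e-08) and larger in the tdTomato than in the EYFP line by 1.01 (standard error 0.17, adjusted p = 0.000969). Over 189 bases (1.44%) its exons overlap those of the antisense gene Gm13872, and it is not stated whether the counting used strand.

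Slc1a3 (ENSMUSG00000005360, chromosome 15 from 8634124 to 8710764) was high in all 18 libraries. Its NSC values were 14.44, 14.15 and 14.02 (tdTomato), 14.74, 14.72 and 14.51 (EYFP) and 15.13, 15.07 and 15.06 (hippocampal), and its astrocyte values 14.81, 14.75 and 14.83, 14.91, 14.82 and 14.93, and 15.37, 15.35 and 15.49. The hippocampal libraries lay above all traced libraries, even those of the other fate. As deposited it was higher in astrocytes by 0.38 over all lines (standard error 0.06, adjusted p = 2.65e-05), but the change was -0.01 under quantile normalisation (adjusted p = 0.941). It was higher by 0.60 in the tdTomato line (adjusted p = 0.000318) under both scalings (0.37 under quantile normalisation, adjusted p = 0.0164). In the EYFP line the change was 0.23 (adjusted p = 0.0223) as deposited and -0.11 under quantile normalisation (adjusted p = 0.316). In the hippocampal line it was 0.32 (adjusted p = 0.000999) as deposited and -0.30 under quantile normalisation (adjusted p = 0.00151). The call in the EYFP line was also lost without NSC replicate 3 or astrocyte replicate 1 or 3 (adjusted p from 0.0619 to 0.0712). The 2 transporters thus differed in the size of their change, 2.28 for Slc1a2 (standard error 0.25, adjusted p = 1.66e-07) and 0.38 for Slc1a3, which was near its astrocyte level in NSCs.

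Glul (ENSMUSG00000026473, chromosome 1 from 153899944 to 153909723) kept the narrowest range of the 8 genes tested. The NSC values were 13.15, 13.19 and 13.06 (tdTomato), 13.26, 13.31 and 13.33 (EYFP) and 13.33, 13.36 and 13.38 (hippocampal), and the astrocyte values 13.37, 13.42 and 13.34, 13.13, 13.12 and 13.22, and 13.29, 13.33 and 13.26. The groups overlapped at every step of their order but 1, between hippocampal and EYFP astrocytes. It was higher in tdTomato astrocytes than in their NSCs by 0.25 (standard error 0.05, adjusted p = 0.00114) and lower in EYFP astrocytes by 0.15 (log2 change -0.15, standard error 0.05, adjusted p = 0.0231), a difference between the traced lines of 0.39 (standard error 0.06, adjusted p = 0.000451). The hippocampal change was -0.06 (standard error 0.04, adjusted p = 0.184), and under quantile normalisation it was -0.15 and was called (adjusted p = 0.00798). The EYFP call was lost without NSC replicate 2 or 3 or astrocyte replicate 1 (adjusted p from 0.0613 to 0.0695) and under median centring (-0.09, adjusted p = 0.129). Glul shares 6.63% of its 75-base stretches with other genes, among them the pseudogene Glns-ps1, and overlaps Teddm2 on the other strand over 116 bases (3.49%), so reads could be split with them.

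Among the other genes of glutamate and glutamine handling, 11 of 13 were tested, with 3 higher, 6 lower and 2 that did not pass (median change -0.22). Of all genes tested, 42.1% were higher and 39.8% lower. Slc7a11, the cystine and glutamate exchanger, was not called over all lines (0.58, adjusted p = 0.0809), but was without EYFP NSC replicate 2 (0.79, adjusted p = 0.00825). It rose in the hippocampal line (1.75, adjusted p = 1.75e-05), with changes of 0.28 and -0.28 in the tdTomato and EYFP lines (adjusted p = 0.298 and 0.556). Slc38a1, a glutamine importer, rose by 2.29 (standard error 0.06, adjusted p = 1.66e-16) and Glud1, glutamate dehydrogenase, by 1.07. Slc38a2, another glutamine importer, was the remaining gene called as higher over all lines (0.73, adjusted p = 0.0261), but it rose in the hippocampal line (2.40, adjusted p = 2.66e-10) and had changes of -0.12 and -0.08 in the tdTomato and EYFP lines (adjusted p = 0.0837 and 0.260), a difference of -2.50 between traced and hippocampal lines (adjusted p = 2.05e-13). Its call over all lines was lost with 6 of the 18 libraries left out (adjusted p from 0.0549 to 0.0566). Slc38a1 stood at 15.48 ± 0.08 and 15.65 ± 0.08 in the traced astrocytes and at 12.13 ± 0.12 in the hippocampal ones (SD, n = 3 each). Slc38a3, which carries the glutamine of astrocytes out to neurons, fell by 1.37 (adjusted p = 3.04e-07), and Slc1a6, the transporter of cerebellar Purkinje cells, was near the filter and fell by 1.71 (adjusted p = 4.46e-10).

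Slc4a4 (ENSMUSG00000060961, chromosome 5 from 88886818 to 89239653) rose in both traced lines. Its values were 11.85, 11.50 and 11.23 in tdTomato, 12.57, 12.51 and 12.08 in EYFP and 13.20, 13.18 and 12.95 in hippocampal NSCs. In astrocytes they were 12.67, 12.70 and 12.81, 12.95, 12.94 and 13.32, and 12.86, 13.01 and 13.15. Hippocampal NSCs, EYFP astrocytes and hippocampal astrocytes overlapped at the top of the order, and the other 3 groups stood apart below them. The change was 1.20 in the tdTomato line (standard error 0.13, adjusted p = 1.92e-05), 0.69 in the EYFP line (standard error 0.14, adjusted p = 0.00119) and -0.10 in the hippocampal line (standard error 0.09, adjusted p = 0.305). The difference between traced and hippocampal lines was 1.05 (standard error 0.18, adjusted p = 0.000114), and that between the traced lines, 0.51, did not pass (adjusted p = 0.112).

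Other genes of bicarbonate, proton and chloride transport were divided, with 4 of 8 tested higher, 3 lower and a median change of 0.37. These shares were near those of all genes, 42.1% higher and 39.8% lower. The higher ones were Slc4a10 (1.38), close to the filter, the chloride and bicarbonate exchangers Slc4a3 (1.20, standard error 0.04, adjusted p = 1.78e-14) and Slc4a2 (0.54), and the carbonic anhydrase Car14 (0.67), which was not called under quantile normalisation (adjusted p = 0.132). Slc4a7 (-0.77), a sodium and bicarbonate cotransporter, and Slc12a2 (-0.62), which takes up sodium, potassium and chloride together, were among the lower ones. Car2, another carbonic anhydrase, had a change of 0.21 over all lines (adjusted p = 0.229), made of rises of 0.88 and 0.38 in the tdTomato and EYFP lines and a change of -0.64 in the hippocampal line (adjusted p = 1.73e-07, 0.000236 and 8.62e-06).

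Gja1 (ENSMUSG00000050953, chromosome 10 from 56377330 to 56402513) rose most in the hippocampal line. NSC libraries had 11.36, 11.20 and 11.13 in the tdTomato line, 11.32, 11.14 and 11.09 in the EYFP line and 12.02, 11.83 and 11.95 in the hippocampal line. Astrocyte libraries had 12.84, 12.92 and 13.15, 12.69, 12.52 and 12.96, and 14.58, 14.70 and 14.70. Within each fate the 2 traced lines overlapped and the hippocampal line lay above them. The change was 1.74 (standard error 0.09, adjusted p = 9.35e-08) in the tdTomato line, 1.54 (standard error 0.10, adjusted p = 6.46e-07) in the EYFP line and 2.73 (standard error 0.06, 6.62-fold, adjusted p = 2.29e-10) in the hippocampal line. It was smaller in the traced lines by 1.09 (difference -1.09, standard error 0.12, adjusted p = 1.05e-06).

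Gjb6 (ENSMUSG00000040055, chromosome 14 from 57123303 to 57133611) was below the filter in all 18 libraries. Its values were -0.09, -0.09 and -0.08 (tdTomato), -0.11, -0.11 and -0.10 (EYFP) and -0.08, 0.32 and -0.09 (hippocampal) in NSCs, and 0.35, -0.07 and 0.66, 0.27, 0.64 and -0.06, and 1.72, 2.39 and 2.42 in astrocytes. Hippocampal astrocytes stood apart from all other groups by more than 1, still at a low level. A regularised log, whose form the values have, would pull values this low towards the gene's mean and understate a change, which could not be tested, and without the counts it is not known how many reads lie behind them. Fitted without the filter, the hippocampal change was 2.13 (standard error 0.25, adjusted p = 0.000979), and those of the tdTomato and EYFP lines were 0.40 and 0.39 (adjusted p = 0.159 and 0.145). Of the connexins joining astrocytes in brain, Cx43 mRNA was thus abundant in these cultures and Cx30 mRNA was not detected above the filter.

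The other connexin and pannexin genes were mostly silent, with 6 of 21 tested, 2 of them higher and 2 lower. All genes tested had shares of 42.1% higher and 39.8% lower. Panx2, counted as higher, reached the filter in the 3 hippocampal astrocyte libraries and in no other, so its direction was fixed by the filter. Panx1, a large-pore channel that releases ATP, fell by 2.16 (adjusted p = 6.60e-14), and Gjc1 by 1.32 (adjusted p = 2.51e-09). Gja5 had a change of -0.29 (adjusted p = 0.0812) and was called as lower under quantile normalisation (-0.61, adjusted p = 0.0011) and without tdTomato NSC replicate 1 (adjusted p = 0.0176) or astrocyte replicate 1 (adjusted p = 0.0380). Gjc3, a connexin gene of oligodendrocytes, had a change of 0.06 over all lines (adjusted p = 0.886) while its lines moved apart: it fell by 1.04 in the tdTomato line and by 0.87 in the EYFP line and rose by 2.08 in the hippocampal line (adjusted p = 4.22e-06, 9.19e-05 and 2.09e-09).

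**Figure D3:**
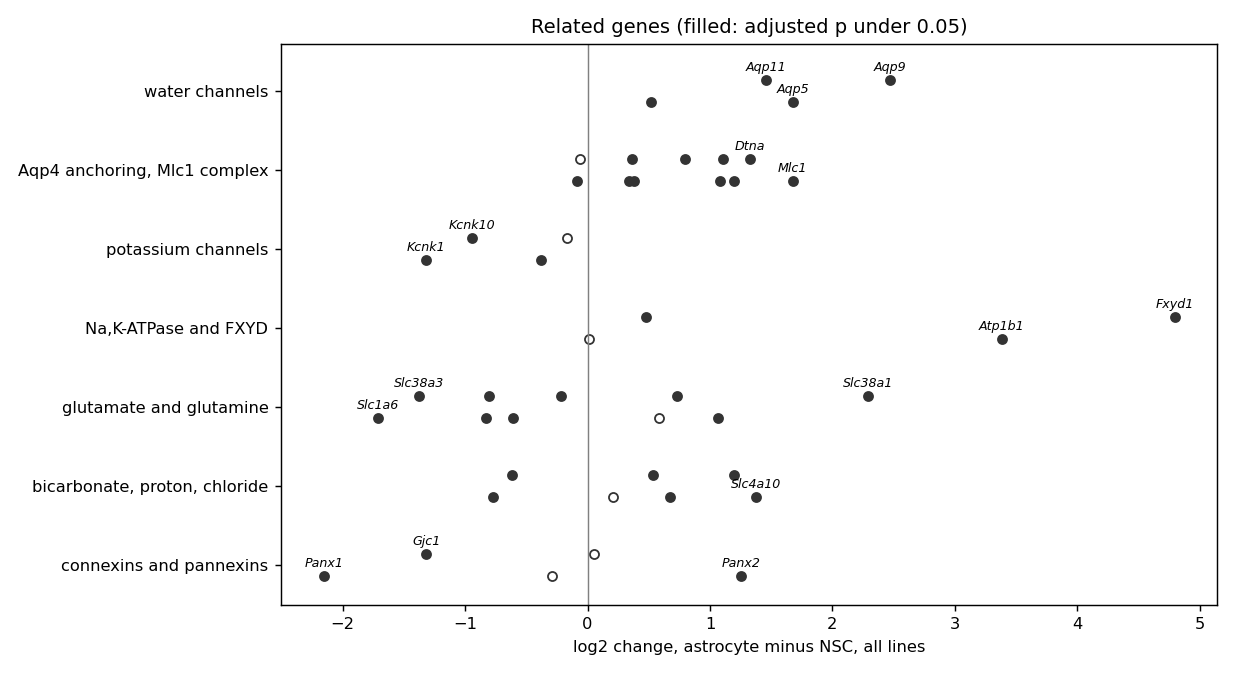
Log2 change from NSC to astrocyte over all lines (x axis) of 45 of the 52 related genes tested, by list (y axis), with filled points for an adjusted p under 0.05 and open points otherwise. The anchoring complex of Aqp4 and the other water channels lie almost entirely to the right of 0, and the potassium channels lie to the left, from -1.32 to -0.17.

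Over the 7 related lists together, 74 of 78 genes had a row and 52 were tested, of which 27 (51.9%) were higher in astrocytes, 17 (32.7%) were lower and 8 did not pass, where 42.1% of all genes were higher and 39.8% lower. Of the 27, 5 reached the filter in no NSC library (Aqp1, Aqp5, Fxyd1, Panx2 and Slc4a10), and of the 17, Slc1a6 in no astrocyte library, so their direction was fixed by the filter. Their median change was 0.37, beside 0.02 for all genes tested, and 1.17 for the 8 homeostatic genes themselves. The 44 calls became 40 to 45 with each library left out in turn, under another scaling or with a replicate block, and no called gene changed direction.

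Read by line, all 8 genes tested were higher in tdTomato astrocytes than in their NSCs, where 39.9% of all genes were higher and 39.5% lower. In the EYFP line 6 were higher and 2, Kcnj10 and Glul, were lower (37.5% and 37.4% of all genes). In the hippocampal line 5 were higher and 1, Kcnj10, was lower, and Glul and Slc4a4 did not pass (39.2% and 38.2% of all genes). The rise of Slc1a3 is among these counts in each line and did not keep its direction under quantile normalisation in the EYFP and hippocampal lines. The median change of the 8 genes was 1.47, 0.95 and 0.66 in the 3 lines, and that of all genes was between 0.00 and 0.01.

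**Figure D4:**
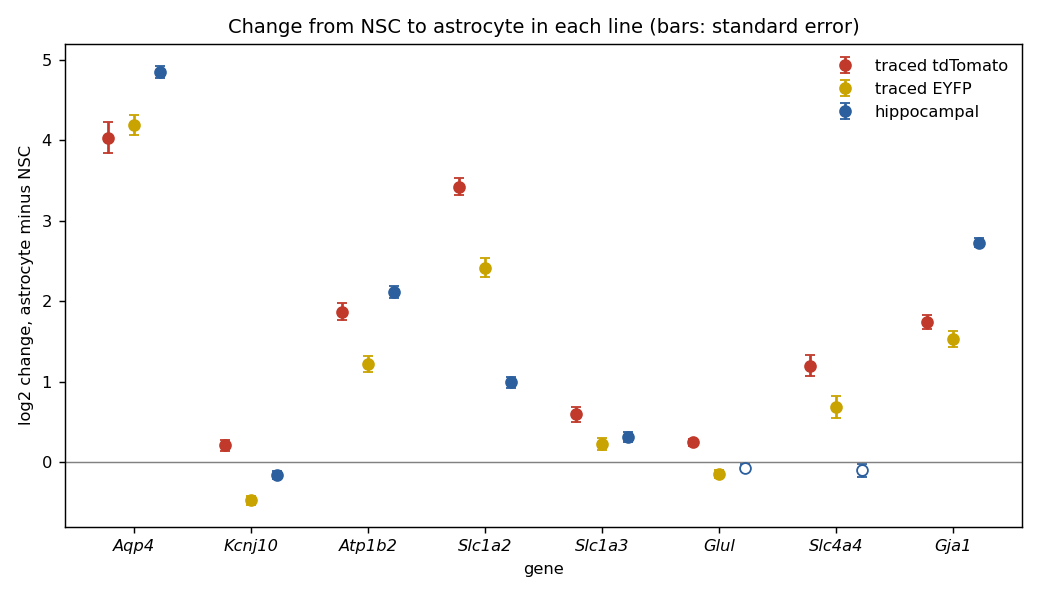
Log2 change from NSC to astrocyte (y axis) of the 8 genes tested (x axis) in each line, with the standard error as bars and filled points for an adjusted p under 0.05. Slc1a2 and Slc4a4 change most in the tdTomato line and least in the hippocampal line, Gja1, Aqp4 and Atp1b2 most in the hippocampal line, and Slc1a3 has small changes that turned negative in the EYFP and hippocampal lines under quantile normalisation.

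The change from NSC to astrocyte differed between the traced and the hippocampal lines in 5 of the 8 genes, where 46.2% of all genes differed. The glutamate transporter Slc1a2 (1.93) and the bicarbonate transporter Slc4a4 (1.05) had the larger change in the traced lines, and Gja1 (-1.09), Aqp4 (-0.73, standard error 0.21, adjusted p = 0.00798) and Atp1b2 (-0.57) had the larger change in the hippocampal line. Under quantile normalisation the call of Atp1b2 was lost (-0.31, adjusted p = 0.0939), and Slc1a3 (0.43, adjusted p = 0.0149) and Glul (0.18, adjusted p = 0.0125) were called. Between the 2 traced lines the change differed in 4 genes, Slc1a2, Kcnj10, Atp1b2 and Glul, by 0.39 to 1.01, each more positive in the tdTomato line, where 13.3% of all genes differed in either direction. Those of Slc1a3 (0.37, adjusted p = 0.0511) and Slc4a4 (0.51) were called without tdTomato NSC replicate 1 or EYFP NSC replicate 3 (adjusted p from 0.00315 to 0.0278), and that of Slc1a3 also with the filter at 100, under median centring, under quantile normalisation (0.51, adjusted p = 0.0385) and with a replicate block (adjusted p = 0.0429). Both kinds of comparison use the same NSC and astrocyte libraries as the changes within lines.

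Set against hippocampal NSCs, 4 of the 8 genes were lower in traced NSCs and 0 were higher, where 19.4% of all genes differed. These were Slc4a4 (-1.15, standard error 0.28, adjusted p = 0.0163), Slc1a2 (-0.995, standard error 0.24, adjusted p = 0.0169), Gja1 (-0.72, standard error 0.07, adjusted p = 5.28e-05) and Slc1a3 (-0.66, standard error 0.15, adjusted p = 0.0146), in each of which the traced and hippocampal libraries did not overlap. Except for Gja1 these calls depended on single hippocampal libraries: that of Slc1a2 was lost without any of them (adjusted p from 0.0530 to 0.0775), that of Slc1a3 likewise (0.0546 to 0.0657), and that of Slc4a4 without replicate 1 or 2 (0.0679 to 0.0718). The count was 1 without hippocampal NSC replicate 1 or 2 and 2 without replicate 3.

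In astrocytes 5 of the 8 genes differed between origins, where 52% of all genes did. Slc1a2 was now higher in traced astrocytes (0.93, standard error 0.10, adjusted p = 1.78e-05), while Gja1 (-1.81, standard error 0.12, adjusted p = 6.21e-07), Atp1b2 (-0.72, standard error 0.07, adjusted p = 8.95e-06), Slc1a3 (-0.56, standard error 0.06, adjusted p = 2.42e-05) and Kcnj10 (-0.20, standard error 0.08, adjusted p = 0.0443) were lower. In all of these but Kcnj10 the libraries of the 2 origins did not overlap. Aqp4 had a difference of -0.40 (adjusted p = 0.523), with the hippocampal libraries between those of the traced lines. The call of Kcnj10 was lost in 8 of the 9 fits that left out a library, all but that without tdTomato astrocyte replicate 1 (adjusted p from 0.0557 to 0.173), and under median centring and quantile normalisation (adjusted p = 0.0912 and 0.118). Slc1a2 is therefore the gene that was lower in traced NSCs and higher in traced astrocytes, with non-overlapping libraries in both.

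The 2 traced lines, of the same origin, also differed from each other. As NSCs, 7 of the 8 genes were lower in the tdTomato line, from -0.17 for Glul (adjusted p = 0.0203) to -1.67 for Aqp4, and in all 7 the libraries of the lines did not overlap. Slc4a4 was lower by 0.86 (log2 difference -0.86, adjusted p = 0.00637), Slc1a2 by 0.73 (-0.73, adjusted p = 0.00879) and Atp1b2 by 0.59 (-0.59, adjusted p = 0.0111). Gja1 had a difference of 0.05 (adjusted p = 0.661), and 33.2% of all genes differed. As astrocytes 3 genes differed, where 11.2% of all genes did: Aqp4 was lower in the tdTomato line (-1.83), and Slc1a2 (0.28, adjusted p = 0.0256) and Glul (0.22, adjusted p = 0.0210) were higher. Without a filter on low values 2 of the 7 NSC calls remained, Aqp4 and Kcnj10, and 1 of the 3 in astrocytes, Aqp4. The NSC call of Slc1a3 was lost without tdTomato replicate 2 or EYFP replicate 1, and that of Glul without tdTomato replicate 3 or EYFP replicate 2 (adjusted p from 0.0535 to 0.0675). Without tdTomato astrocyte replicate 2 or 3 or EYFP astrocyte replicate 1, only Aqp4 was called in astrocytes, and without EYFP astrocyte replicate 2 Aqp4 and Slc4a4 were. With a replicate block in the limma fit, 6 genes were called in astrocytes. Kcnj10, Slc4a4 and Gja1 were added (adjusted p = 0.0204, 0.00114 and 0.0061), and calls over all genes went from 1641 to 3049.

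Replicates within a group moved together for these genes in part. In tdTomato NSCs, replicate 1 had the highest value of the 3 in 7 of the 8 genes and replicate 3 the lowest in 7, where replicate 1 was highest in 34.6% and replicate 3 lowest in 32.1% of all genes. In EYFP NSCs replicate 3 was lowest in 7 of 8 (35.4% of all genes), and in EYFP astrocytes replicate 3 was highest in 6 of 8 (32.6% of all genes). The replicates stand for different passages, but which number is which passage is not stated.

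Divided by the length of their exons, the levels could be compared between genes, on the log2 scale per kilobase. Atp1b2 was the highest of the 9 in all 3 astrocyte groups, at 13.01, 12.95 and 13.71 in the tdTomato, EYFP and hippocampal lines, followed by Slc1a3 at 11.70, 11.79 and 12.31. In NSCs Slc1a3, Glul, Kcnj10 and Atp1b2 filled the first 4 places in every line, between 11.11 and 11.99, and their order depended on whether all annotated exons or the longest transcript gave the length. Gjb6 was last in every group (-1.52 to 0.76). Aqp4 was next to last in all 3 NSC groups (5.24, 6.90 and 5.74) and reached 9.27, 11.10 and 10.59 in astrocytes. Slc1a2 per kilobase stayed below Slc1a3 in every group, by the least in tdTomato astrocytes, at 11.35 beside 11.70 with all annotated exons and at 11.53 beside 12.65 with the longest transcript.

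The promoters of 7 of the 9 genes were matched in the RefSeq promoter table (GRCm38.p6) and searched, over the 250 bases before the start, for 3 motifs on both strands: GGCGCC, the response element of the SMAD proteins that carry BMP signals, TTGGCA, letters of the sites of the NFI factors of astrocyte development, and TTCNNNGAA, the pattern bound by STAT factors. They occur in 9.59%, 12.3% and 7.02% of the 32851 promoters of the table. Among the 7 genes, GGCGCC was found once, before the first of the 2 starts listed for Slc4a4, TTCNNNGAA once, before Slc1a3, and TTGGCA in none. That stretch of Slc4a4 and the stretch of Glul lie wholly in annotated exons (250 bases each). The stretch of Slc1a2 begins at 102706188, inside the gene as annotated, so the stretches are not all alike. The stretches of Gja1, chr10:56377050-56377299 on the plus strand, and of Slc1a3, chr15:8710808-8711057 on the minus strand, are shown because these genes contrast a large change without a match and a small change with a match, and both lie outside annotated exons. Capitals mark the TTCNNNGAA match.
Gja1: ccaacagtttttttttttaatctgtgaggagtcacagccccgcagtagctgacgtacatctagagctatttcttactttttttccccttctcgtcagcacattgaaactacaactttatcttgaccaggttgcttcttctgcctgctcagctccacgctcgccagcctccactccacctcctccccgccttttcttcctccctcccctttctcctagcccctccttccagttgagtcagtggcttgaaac
Slc1a3: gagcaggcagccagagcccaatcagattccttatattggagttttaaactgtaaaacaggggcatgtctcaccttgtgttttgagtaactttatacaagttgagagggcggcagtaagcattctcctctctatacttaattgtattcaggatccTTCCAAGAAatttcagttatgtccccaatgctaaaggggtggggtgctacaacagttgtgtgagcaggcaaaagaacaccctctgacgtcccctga
A match is a run of letters and not a shown binding site, and no match concerns these 250 bases only.

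The genes whose values followed each of the 9 most closely over the 18 libraries, among 12010 genes with a group mean of at least 100 on the linear scale, were as follows. Aqp4 was most like Atp2b4 (Pearson r = 0.993), a calcium pump, and Lrrc8a (0.988), a volume-regulated anion channel subunit. Slc1a2 was most like Slc25a42 (0.993) and Dzank1 (0.985), Atp1b2 like Os9 (0.992), and Gja1 like Ifi27 (0.989) and Irf9 (0.987), both known as interferon-induced genes. For these 4 genes 173 to 580 others had an r above 0.95, and all share the contrast between the fates. Slc1a3 was most like Pcdh10 (0.969) and Gca (0.956), Slc4a4 like Ddhd1 (0.956), and Gjb6 like Aspg (0.964) and Usp18 (0.956), with at most 3 genes above 0.95. Kcnj10 (Fchsd2 0.878, Stau1 0.875) and Glul (Camk2n1 0.791, Glis2 0.778) had none above 0.95. The points are cultures of 3 lines in 2 fates, so these values describe a shared pattern over 6 groups.

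Defining markers were checked for the labelled cell types, beside 42.1% of all genes higher in astrocytes and 39.8% lower. Of 5 astrocyte markers 4 were higher in astrocytes, among them Gfap by 6.53 and S100b by 2.00, while Aldh1l1 had a change of 0.09 (adjusted p = 0.444), and their summed linear level was 16770 to 33600 in NSC and 89440 to 172900 in astrocyte libraries. Of 6 NSC and cycling markers, 3 fell, namely Mki67, Nes and Egfr, and 3 rose, among them Sox2 and Prom1, and their sum was 42110 to 46460 in NSCs, 16310 to 19000 in traced and 26250 to 29550 in hippocampal astrocytes. Nes, the gene of nestin, fell in the tdTomato line (-3.18) and the EYFP line (-3.05) but stood at 13.86 ± 0.12 in hippocampal NSCs and 13.64 ± 0.20 in hippocampal astrocytes (SD, n = 3 each, adjusted p = 0.0582), a difference of -2.89 between traced and hippocampal lines (adjusted p = 1.63e-11). Of 5 ependymal markers 4 were tested and were higher in astrocytes, Foxj1 by 1.45, with Ccdc153 at the filter in hippocampal astrocytes only, and their sum went from 725.4 to 1486 in NSCs to 2091 to 5270 in astrocytes, highest in hippocampal astrocytes. Of the oligodendrocyte lineage list of 7, 1 rose, Olig2 and Pdgfra fell, Mbp reached the filter in hippocampal astrocytes only and did not pass over all lines, and Sox10, Mog and Mag were below the filter, and the sum was 17930 to 21540 in NSCs and 3556 to 8117 in astrocytes. The neuron list summed to 154.2 to 285.0 in NSCs and 344.8 to 469.5 in astrocytes, with 3 of 4 tested higher. Of 2 fibroblast markers tested Lum was higher by 0.79. Microglia, endothelial and fibroblast markers each summed to at most 61.1 in any library, with no microglial or endothelial marker tested. The parts of cells with NSC, ependymal, oligodendrocyte lineage or neuron markers in the changes of the 9 genes were not tested.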

How the data were processed

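RNA-seq libraries of 18 cultures were analysed, 3 per group. The authors aligned reads with STAR (2.5.2), counted them per gene with RSEM (1.3.0 in the submitters' processing notes) on Ensembl release annotation of GRCm38 and normalised the counts with DESeq2 (1.18.1). The labels name a stranded kit with reads of 76 bases, and the methods name another kit. Whether strand was used in counting is not given in the sources used here. Values in the table as deposited are on a log2 scale, for 27997 genes, from -2.15 to 18.9, of which 29.4% are negative. They have the form of a regularised log, a transform that is not named in the sources used here and that would pull weakly expressed genes towards their mean. Counts could not be recovered, so the depth of each library is unknown, and intervals for counting error could not be had.

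Groups were taken from the titles, and every column was matched to a sample. Differences were tested with limma (3.58.1, R 4.3.3) with a variance trend on the values as deposited, with Benjamini-Hochberg adjustment over all genes tested and a threshold of 0.05. A gene entered a comparison where 3 or more of its libraries had a value of 10 or more when taken off the log scale. The fate comparison used all libraries with the line as covariate, lines and origins were compared on their own libraries, and differences between changes were tested as interactions over 1 mean per group. The scripts were run beforehand on simulated data whose changes were known, and the tests were checked there. Replicates of a group differed by a median of 0.0746 to 0.126 per gene, and no 2 libraries were identical.

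The 9 genes, the related lists and the markers were chosen with earlier results of these data known. All 9 genes are named, with the 3 largest called changes of each related list, any gene that a count of 5 or fewer refers to, and the 2 genes most correlated with each, apart from some genes that are not reported here but stay in the counts. Names singled out beyond this rule, such as Trpv4 and the genes whose differences between lines are given, were chosen after their values were seen. The motifs were also chosen after the values were seen. Related genes without a row (Aqp3, Gjb1, Gje1 and Panx3) and the markers Tmem212, Cx3cr1 and Cldn5 were not analysed here. Symbols came from the name table given with the reference, and coordinates, exon lengths and overlaps from GENCODE M21 (GRCm38). Alternatives were other filters, log2 of the linear value plus 10, median centring, quantile normalisation, no trend, 1 model with a mean per group, a replicate block, leaving out each library, and 2 definitions of gene length.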

Additional observations from a re-analysis of the deposited data

Results flagged for a closer look

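In 5 of the 8 genes tested the change from NSC to astrocyte differed between the traced and the hippocampal lines. The share over all genes was 46.2%. The test was a limma interaction over all 18 libraries, and differences are given as traced minus hippocampal. The difference was 1.93 for Slc1a2 (adjusted p = 1.29e-08), 1.05 for Slc4a4 (adjusted p = 0.000114), -1.09 for Gja1 (adjusted p = 1.05e-06), -0.73 for Aqp4 (adjusted p = 0.00798) and -0.57 for Atp1b2 (adjusted p = 0.00184). That of Slc1a2 goes with a turned order of the lines, lowest to highest in the traced tdTomato line and highest to lowest in the hippocampal line.

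In 4 of the 8 genes tested the change differed between the 2 traced lines, given as tdTomato minus EYFP. The share over all genes was 13.3%. The difference was 1.01 for Slc1a2 (adjusted p = 0.000969), 0.68 for Kcnj10 (adjusted p = 0.00011), 0.66 for Atp1b2 (adjusted p = 0.00925) and 0.39 for Glul (adjusted p = 0.000451). Kcnj10 and Glul were higher in tdTomato astrocytes than in their NSCs and lower in EYFP astrocytes than in theirs. Each group was 1 line, so these differences cannot be told apart from differences between lines.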

How the results depend on the processing

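Of 624 fits of single genes under settings other than a left-out library, 581 kept direction and call, and of 816 with a library left out 760 did. Quantile normalisation reversed 5 values, which became -0.0079 for Slc1a3 and -0.0388 for Glul over all lines, -0.11 and -0.30 for Slc1a3 in the EYFP and hippocampal lines and 0.0371 for Glul between origins in astrocytes, where median centring gave 0.0137. Left-out libraries turned 5 small values, with ranges of -0.0149 to 0.0296 for Glul over all lines, -0.0568 to 0.0043 for Glul between origins in astrocytes, -0.021 to 0.11 for Gja1 between traced NSCs, -0.0008 to 0.0764 for Kcnj10 and -0.32 to 0.0931 for Aqp4 in the 2 interactions. The cause was not tested. Counts moved by over 1.5 times in 3 comparisons: between origins in NSCs, 4 became 1 to 4 with a library left out, between traced NSCs, 7 became 2 without a filter (more genes tested), and between traced astrocytes, 3 became 1 without a filter, 1 to 3 with a library left out and 6 with a replicate block.

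The main tests did not use the replicate numbers as pairs. Deviations of same-numbered libraries of a fate correlated by 0.106 on average over 18 pairs (lowest 0.0117), with 9 above 0.1. Between the fates of a line the mean was -0.0235 over 9 pairs. Of 18 libraries, 17 correlated best with their own number. Libraries of the same number and fate thus shared some deviation, which was weak on average and not seen between the fates of a line. With the block, Kcnj10, Slc4a4 and Gja1 were also called between traced astrocytes, and the count of genes whose change differed between traced lines was 5 in place of 4. Calls over all genes between traced astrocytes went from 1641 to 3049. In 1 model with a mean per group, Kcnj10 and Glul were also called between origins in NSCs, Aqp4 between origins in astrocytes and Kcnj10 over all lines (adjusted p = 0.00141), and Slc1a2 was no longer called between traced astrocytes (adjusted p = 0.144). Alternatives for the related genes were chosen after seeing the data. The unknown depth and the transform limit what can be said of weak genes such as Gjb6, Aqp5 and Slc4a10.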
